A study of Homo sapiens with 16 samples.

Results

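The 10 genes described here encode 3 Janus kinases (JAK1, JAK2, TYK2), 4 signal transducers and activators of transcription (STAT3, STAT5A, STAT5B, STAT6), both subunits of the leukaemia inhibitory factor receptor (LIFR and IL6ST, also called gp130) and the ligand LIF. They were taken by gene symbol from the 60676 gene IDs of the count files, and all 10 were counted and passed the filter on low counts. Total RNA was sequenced from LNCaP, a prostate cancer cell line that depends on androgen and was derived from a metastasis in a lymph node. The 4 groups of 4 libraries were RB-p53 double knockout cells made with CRISPR-Cas9 (DKO) in enzalutamide (EZ), DKO cells in the solvent DMSO, unedited cells (WT) in EZ and WT cells in DMSO. EZ, an antiandrogen drug, was given at 50 µM for 6 days, and DMSO at an equal volume over the same time. The labels do not say whether the DKO cells were 1 clone or a pool, or whether each replicate was its own culture. The p-values thus cover the spread between these libraries, which may be partly technical.

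LIF is a secreted cytokine of the interleukin-6 family. It binds LIFR, which then pairs with IL6ST, the signalling subunit that the family shares. Janus kinases sit on the tails of such receptors and phosphorylate tyrosines there, STAT proteins dock on these, are phosphorylated in turn and enter the nucleus as dimers, and SOCS proteins switch the signal off. The genes of this pathway are known from work on lineage plasticity of prostate cancer cells that have lost RB and p53. Counts measure transcripts, not phosphorylated protein.

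Libraries held 11823438 to 47678648 counts with a median of 23919882. RB1, one of the edited genes, stood at 9.94 to 13.4 CPM in DKO EZ, 9.04 to 11.7 CPM in DKO DMSO, 95.6 to 122 CPM in WT EZ and 101 to 128 CPM in WT DMSO, where CPM is the usual unit of a gene's count relative to its library's size, scaled here by TMM. The 9 luminal markers were all counted in every group and summed to 2160 to 2754 CPM in DKO EZ, 2149 to 2542 CPM in DKO DMSO, 4302 to 4476 CPM in WT EZ and 3322 to 4397 CPM in WT DMSO. The 5 leukocyte markers summed to at most 0.682 CPM in any library, with CD3E at 0. Of 4 fibroblast markers, COL1A2 and DCN did not pass the filter on low counts. COL1A1 and LUM, the 2 tested, were called higher in DKO in both treatments, where 8.91% of all tested genes were called higher in DMSO and 9.29% in EZ. In WT EZ 1 of the 4 markers had 0 counts, and in WT DMSO 2 had. The list summed to 36.1 to 49.8 CPM in DKO EZ, 23.3 to 42.5 CPM in DKO DMSO, 14.1 to 20.3 CPM in WT EZ and 14.6 to 21.4 CPM in WT DMSO. The part of these markers in the differences below was not tested. The libraries fell into a set of 6 with a high share of the noncoding RNA RN7SL1 (0.220% to 0.621% of counts: replicate 1 of every group and replicate 2 of both DKO groups) and a set of 10 with a low share (0.0481% to 0.117%).

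Start regions are shown for both receptor genes and for STAT3 and STAT5A, since each of these pairs differed in opposite directions between DKO and WT cells. STAT3 and STAT5A lie side by side on chromosome 17 with 1380 bases between the annotated genes, and STAT5B lies 10839 bases beyond STAT5A. The sequences below are the stretches outside exons within the 250 bases before annotated transcript starts, on the strand of the gene (RefSeq, GRCh38.p14), and capitals mark the palindromic STAT element TTCNNNGAA.
STAT3 start, chr17:42388569-42388692, minus strand: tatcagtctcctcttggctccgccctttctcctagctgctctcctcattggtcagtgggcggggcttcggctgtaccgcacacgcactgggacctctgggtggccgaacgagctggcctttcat
STAT5A start, chr17:42287297-42287546, plus strand: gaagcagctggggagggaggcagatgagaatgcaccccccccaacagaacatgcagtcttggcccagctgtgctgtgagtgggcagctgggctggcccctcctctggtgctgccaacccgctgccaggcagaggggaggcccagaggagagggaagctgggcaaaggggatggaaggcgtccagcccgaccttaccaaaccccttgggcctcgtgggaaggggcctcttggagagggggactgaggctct
IL6ST start, chr5:55994994-55995166, minus strand: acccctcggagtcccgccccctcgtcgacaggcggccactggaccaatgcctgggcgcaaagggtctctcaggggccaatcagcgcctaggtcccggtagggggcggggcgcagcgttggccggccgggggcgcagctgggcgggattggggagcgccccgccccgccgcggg
LIFR upstream start, chr5:38595406-38595655, minus strand: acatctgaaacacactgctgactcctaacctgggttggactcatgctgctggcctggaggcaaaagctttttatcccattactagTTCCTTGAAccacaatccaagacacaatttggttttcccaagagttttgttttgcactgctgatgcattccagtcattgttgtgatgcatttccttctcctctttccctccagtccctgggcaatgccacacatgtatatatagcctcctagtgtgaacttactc
LIFR downstream start, chr5:38556647-38556785, minus strand: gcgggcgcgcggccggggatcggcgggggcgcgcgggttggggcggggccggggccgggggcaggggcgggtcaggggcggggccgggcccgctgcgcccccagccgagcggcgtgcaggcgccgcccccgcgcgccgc

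The table held start regions for 9 of the 10 genes, 18 windows in all. The STAT element, searched on both strands, was present in 2 of the 18 windows, both of LIFR, and in 6.57% of the 35116 windows of all genes. LIFR has 3 windows. The element lies in the upstream one shown, where it begins 165 bases before the start, and in a middle one that is not shown (chr5:38557468-38557717), and not in the downstream one. The stretch at the downstream start of LIFR was 91.4% G and C and that at IL6ST 76.9%, while the one at the upstream start of LIFR was 45.2%. A match to these letters is a description of the sequence and not a measured binding site.

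LIF had the widest spread of group means among the 10 genes. The DKO EZ libraries had 1.02, 0.947, 0.502 and 0.797 CPM and the DKO DMSO libraries 0.494, 0.637, 0.938 and 0.591 CPM, against 5.93, 4.99, 2.98 and 5.72 CPM in WT EZ and 3.60, 3.34, 2.55 and 3.82 CPM in WT DMSO. Every DKO library lay below every WT library. In DMSO, LIF was 4.97-fold lower in DKO (log2 fold change −2.31 ± 0.30, SE, edgeR adjusted p = 3.14e-05), and in EZ 6.12-fold lower (−2.61 ± 0.30, edgeR adjusted p = 8.79e-06). The gene was low throughout, at 10 to 187 counts per library. LIF (chromosome 22, 30240447 to 30246851) shares exon bases with a pair of antisense genes that held 1 count each over the 16 libraries.

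**Figure D1:**
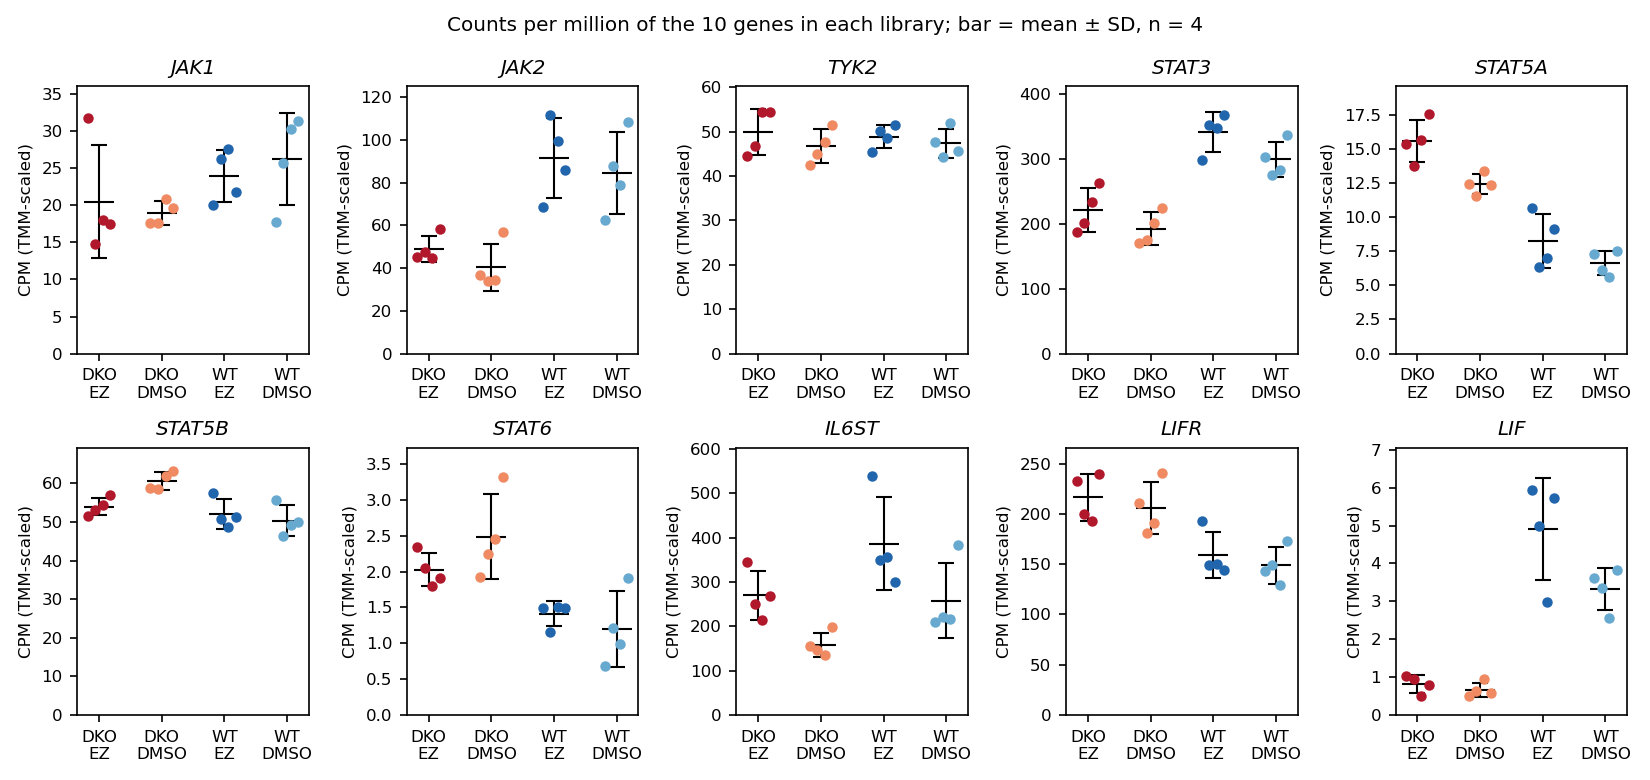
Count relative to library size (CPM, vertical axes starting at 0) of the 10 genes in each of the 16 libraries, by group; points are libraries and bars are mean ± SD of 4 libraries. LIF, JAK2 and STAT3 lay lower in both DKO groups than in both WT groups, STAT5A lay higher, and TYK2 lay between 42.5 and 54.5 CPM in all libraries.

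The receptor subunits went in opposite directions between the genotypes. LIFR (chromosome 5, 38474963 to 38608354) was higher in DKO cells, at 233, 199.6, 193 and 239.8 CPM in DKO EZ and 211, 181, 191 and 241 CPM in DKO DMSO, against 192, 149, 151 and 144 CPM in WT EZ and 144, 149, 129.6 and 173 CPM in WT DMSO. The groups did not overlap in either treatment, though the lowest DKO EZ library and the highest WT EZ library were less than 1 CPM apart. LIFR was 1.38-fold higher in DMSO (log2 0.47 ± 0.13, edgeR adjusted p = 0.0150) and 1.36-fold higher in EZ (0.44 ± 0.13, edgeR adjusted p = 0.0189). The call in EZ was lost when any 1 of DKO EZ replicate 1 or WT EZ replicates 2, 3 and 4 was left out, with edgeR adjusted p up to 0.0677. Its antisense gene LIFR-AS1 shares 629 exon bases with it, held 1876 counts over all libraries, fewer than LIFR had in any 1 library, and was also higher in DKO in DMSO (0.72 ± 0.22, edgeR adjusted p = 0.0272). The strand setting of the counting is not given in the sources used here, so reads of the gene pair cannot be told apart where they overlap.

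IL6ST (chromosome 5, 55935095 to 55994993) was lower in DKO cells in DMSO. It stood at 346, 251, 215 and 269 CPM in DKO EZ and 155, 146, 136 and 198 CPM in DKO DMSO, against 539, 350.3, 357 and 300.2 CPM in WT EZ and 210.4, 222, 217 and 384 CPM in WT DMSO. All 4 DKO DMSO libraries lay below all 4 WT DMSO libraries, whereas 1 DKO EZ library reached into the range of WT EZ. In DMSO IL6ST was 1.63-fold lower in DKO (log2 −0.70 ± 0.22, edgeR adjusted p = 0.0311). In EZ the difference was −0.52 ± 0.22 and did not pass the threshold (edgeR adjusted p = 0.105). The call in DMSO held in 8 of 16 fits that each left out 1 library. It was lost without WT DMSO replicate 4, the highest of its group, where the difference was −0.40 (edgeR adjusted p = 0.163), and without any 1 of DKO DMSO replicates 1, 2 and 3, DKO EZ replicates 2, 3 and 4 or WT EZ replicate 2 (edgeR adjusted p = 0.0519 to 0.143). Without WT DMSO replicate 4 the difference in EZ passed (−0.50, edgeR adjusted p = 0.0454).

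Because both receptor genes were counted in the same library, their ratio does not depend on how libraries are scaled. LIFR had 0.673, 0.796, 0.900 and 0.892 counts per IL6ST count in DKO EZ and 1.36, 1.24, 1.41 and 1.22 in DKO DMSO, against 0.357, 0.425, 0.422 and 0.481 in WT EZ and 0.683, 0.669, 0.598 and 0.452 in WT DMSO. On the log2 scale the ratio was higher in DKO than in WT by 1.14 in DMSO and by 0.95 in EZ, without overlap. The ratios described here were chosen with the fold changes known, so they are a description with no test.

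Among the kinases, JAK2, which serves IL6ST, LIFR and the receptors for growth hormone and prolactin, was lower in DKO cells. It stood at 45.4, 47.4, 44.7 and 58.1 CPM in DKO EZ and 36.7, 33.8, 34.5 and 56.7 CPM in DKO DMSO, against 68.7, 112, 99.6 and 85.9 CPM in WT EZ and 62.5, 87.6, 78.9 and 109 CPM in WT DMSO. Every DKO library lay below every WT library. JAK2 (chromosome 9, 4984390 to 5128183) was 2.09-fold lower in DMSO (log2 −1.06 ± 0.19, edgeR adjusted p = 0.000923) and 1.87-fold lower in EZ (−0.90 ± 0.19, edgeR adjusted p = 0.00290), and it passed the threshold whichever of the 16 libraries was left out. DKO DMSO replicate 4 stood apart from the 3 other libraries of its group.

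TYK2, the kinase of interferon and interleukin-12 receptors, was the steadiest of the 10 genes, with group means that spanned 0.0966 on the log2 scale. It stood at 44.4, 46.7, 54.5 and 54.4 CPM in DKO EZ and 42.5, 45.0, 47.7 and 51.5 CPM in DKO DMSO, against 45.4, 50.1, 48.5 and 51.5 CPM in WT EZ and 47.6, 44.4, 51.9 and 45.6 CPM in WT DMSO. All 4 groups overlapped. The difference in DMSO was −0.02 ± 0.10 with an approximate 95% interval of −0.22 to 0.18 (edgeR adjusted p = 0.922). In EZ it was 0.03 ± 0.10 with an interval of −0.16 to 0.23 (edgeR adjusted p = 0.865). With libraries scaled by their totals alone, which moved the median of all genes by 0.20 in DMSO and 0.24 in EZ, the difference averaged over both treatments was 0.23 (edgeR adjusted p = 0.0277). The count of JAK2 per TYK2 count averaged 0.976 in DKO EZ and 0.847 in DKO DMSO, against 1.84 in WT EZ and 1.75 in WT DMSO (geometric means). The log2 difference of DKO from WT was −1.05 in DMSO and −0.92 in EZ.

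JAK1, which phosphorylates STAT proteins downstream of IL6ST, was the least abundant of the 3 kinases per length in every group. It stood at 31.8, 14.8, 18.1 and 17.5 CPM in DKO EZ and 17.6, 17.7, 20.9 and 19.7 CPM in DKO DMSO, against 20.1, 26.2, 27.6 and 21.9 CPM in WT EZ and 17.8, 25.7, 30.4 and 31.4 CPM in WT DMSO. DKO EZ replicate 1 was the highest and WT DMSO replicate 1 the lowest of their groups, and the groups overlapped in both treatments. The differences were −0.47 ± 0.21 in DMSO (edgeR adjusted p = 0.143) and −0.22 ± 0.21 in EZ (edgeR adjusted p = 0.527). The difference in EZ rests on single libraries: it was −0.50 without DKO EZ replicate 1 (edgeR adjusted p = 0.0538) and −0.02 without DKO EZ replicate 2 (edgeR adjusted p = 0.965). Without replicate 1 of both EZ groups it was −0.57 (edgeR adjusted p = 0.0382).

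STAT3, the main transducer of the interleukin-6 family, was lower in DKO cells. It stood at 186, 201, 232 and 263 CPM in DKO EZ and 170.1, 174, 201 and 224 CPM in DKO DMSO, against 297, 352, 347 and 367 CPM in WT EZ and 303, 275, 283 and 336 CPM in WT DMSO. No DKO library reached a WT library. STAT3 (chromosome 17, 42313324 to 42388568) was 1.56-fold lower in DMSO (log2 −0.64 ± 0.13, edgeR adjusted p = 0.00166) and 1.55-fold lower in EZ (−0.63 ± 0.13, edgeR adjusted p = 0.00172).

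STAT5A, its neighbour and a transducer of prolactin and growth hormone signals, was higher in DKO cells. It stood at 15.3, 13.7, 15.7 and 17.6 CPM in DKO EZ and 12.4, 11.5, 13.4 and 12.4 CPM in DKO DMSO, against 10.6, 6.33, 6.99 and 9.11 CPM in WT EZ and 7.26, 6.11, 5.63 and 7.52 CPM in WT DMSO. No DKO library fell as low as any WT library. STAT5A (chromosome 17, 42287547 to 42311943) was 1.87-fold higher in DMSO (log2 0.90 ± 0.17, edgeR adjusted p = 0.000908) and 1.89-fold higher in EZ (0.92 ± 0.16, edgeR adjusted p = 0.000708). The calls of STAT3 and STAT5A held in 16 of 16 fits that left out 1 library, in both treatments.

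STAT5B, the near-identical partner of STAT5A, had group means that spanned 0.27 on the log2 scale, against 1.23 for STAT5A. It stood at 51.6, 53.01, 54.3 and 56.9 CPM in DKO EZ and 58.9, 58.4, 61.9 and 63.3 CPM in DKO DMSO, against 57.6, 50.7, 48.6 and 51.3 CPM in WT EZ and 55.8, 46.3, 49.2 and 50.0 CPM in WT DMSO. In DMSO the groups did not overlap and STAT5B was 1.21-fold higher in DKO (log2 0.27 ± 0.09, edgeR adjusted p = 0.0442), a call that held in 12 of 16 fits that left out 1 library. It was lost without any 1 of WT DMSO replicates 2, 3 and 4 or WT EZ replicate 2, with edgeR adjusted p up to 0.117. In EZ the groups overlapped and the difference was 0.05 ± 0.09 (edgeR adjusted p = 0.750). Reads common to both STAT5 genes could have been divided between them in counting, so their separate levels are uncertain.

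Ratios within this chromosome 17 cluster restate these values without library scaling. STAT5A had 0.0709 counts per STAT3 count in DKO EZ and 0.0648 in DKO DMSO, against 0.0238 in WT EZ and 0.0221 in WT DMSO (geometric means), a log2 difference of 1.57 in EZ and 1.56 in DMSO. It had 0.288 counts per STAT5B count in DKO EZ and 0.205 in DKO DMSO, against 0.156 in WT EZ and 0.131 in WT DMSO, a log2 difference of 0.88 in EZ and 0.64 in DMSO. The groups did not overlap in any of these 4 comparisons.

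STAT6, the transducer of interleukin-4, was scarce at 13 to 146 counts per library. It stood at 2.34, 2.05, 1.80 and 1.91 CPM in DKO EZ and 1.93, 2.25, 2.45 and 3.32 CPM in DKO DMSO, against 1.496, 1.16, 1.51 and 1.498 CPM in WT EZ and 0.679, 1.22, 0.987 and 1.91 CPM in WT DMSO. In DMSO it was 2.06-fold higher in DKO (log2 1.05 ± 0.29, edgeR adjusted p = 0.0157). In EZ the groups did not overlap, but the difference of 0.51 ± 0.29 did not pass the threshold (edgeR adjusted p = 0.242). STAT6 shares 59 exon bases with LRP1 and 69 with NAB2, both on the opposite strand. LRP1, which held 48323 counts over all libraries, was itself higher in DKO by 0.54 ± 0.11 in DMSO and 0.67 ± 0.11 in EZ. Whether reads of LRP1 or NAB2 entered the count of STAT6 was not tested, so the level of STAT6 is uncertain.

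**Figure D2:**
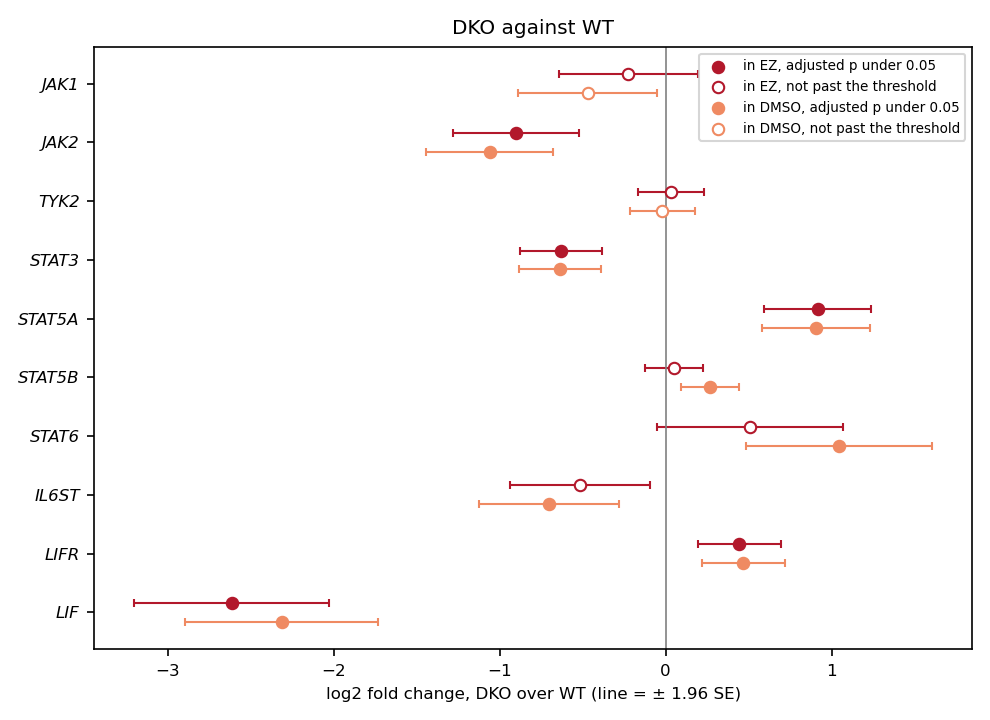
Log2 fold change of DKO over WT (horizontal axis) of the 10 genes in EZ and in DMSO. Lines are approximate 95% intervals and filled points have an edgeR adjusted p under 0.05. LIF, JAK2 and STAT3 lay left of 0 and STAT5A and LIFR right of it in both treatments, all filled, while IL6ST, STAT5B and STAT6 were filled in DMSO only.

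In all, 8 of the 10 genes passed the threshold between DKO and WT in DMSO, 4 higher and 4 lower, where 18.6% of the 21810 tested genes passed (8.91% higher and 9.70% lower). In EZ 5 of the 10 passed, 2 higher and 3 lower, where 20.7% of tested genes passed (9.29% higher and 11.4% lower). The groups did not overlap for 8 of the 10 genes in DMSO and 6 in EZ, against 21.7% and 24.0% of tested genes. The median log2 fold change of the 10 was −0.25 in DMSO and −0.10 in EZ, beside −0.06 and −0.01 over all tested genes. Averaged over both treatments, a contrast added after the data were seen, 7 of the 10 passed, where 33.7% of tested genes passed. IL6ST (−0.61, edgeR adjusted p = 0.00496) and STAT6 (0.78, edgeR adjusted p = 0.00633) were among them, and JAK1 (−0.35, edgeR adjusted p = 0.0870), STAT5B (0.16, edgeR adjusted p = 0.0599) and TYK2 were not. With 1 library left out, STAT5B passed in 10 of 16 of these averaged fits (edgeR adjusted p = 0.0134 to 0.103). JAK1 passed in 2 of 16, at −0.46 without DKO EZ replicate 1 (edgeR adjusted p = 0.00497) and −0.39 without WT DMSO replicate 1 (edgeR adjusted p = 0.0409). In the low RN7SL1 set both passed, at 0.32 for STAT5B (edgeR adjusted p = 0.00992) and −0.44 for JAK1 (edgeR adjusted p = 0.0102). A gene past the threshold in 1 treatment only is not shown to differ between treatments: the interaction, tested below, had no call.

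The differences between DKO and WT were also fitted within each RN7SL1 set. Each set holds fewer libraries than the main fit and a different share of DKO libraries. A call lost within a set therefore cannot be told apart from the smaller number of libraries. In the 10 libraries of the low set alone, the DKO over WT difference in DMSO and in EZ was −2.04 and −2.72 for LIF, −0.95 and −0.87 for JAK2, 1.06 and 1.22 for STAT5A and 0.58 and 0.62 for LIFR, all with an edgeR adjusted p under 0.05. For STAT3 it was −0.43 and −0.45, which did not pass (edgeR adjusted p = 0.0679 and 0.0570). The 6 libraries of the high set hold 1 WT library per treatment, so their values are given with no test. There LIF was at −2.62 in DMSO and −2.57 in EZ, JAK2 at −0.80 and −0.55, STAT3 at −0.79 and −0.61, STAT5A at 0.75 and 0.46, and LIFR at 0.48 and 0.18. The differences of these 5 genes had the same sign in both sets. IL6ST in DMSO was at −0.66 in the low set, where it lost its call (edgeR adjusted p = 0.137), and at −0.46 in the high set. STAT6 in DMSO was at 1.13 in the low set, where it also lost its call (edgeR adjusted p = 0.0581), and at 1.64 in the high set. STAT5B in DMSO was at 0.43 in the low set, where it passed (edgeR adjusted p = 0.0259), and at 0.10 in the high set, and in EZ its sign turned between the sets (0.22 and −0.13). JAK1 turned sign as well, at −0.46 in DMSO and −0.43 in EZ in the low set and 0.02 and 0.23 in the high set.

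Enzalutamide moved none of the 10 genes past the threshold in DKO cells, where 1.48% of tested genes passed, nor in WT cells, where 3.32% passed (edgeR). At an unadjusted p under 0.05 there was 1 of the 10 genes in each genotype, IL6ST. Of the 21810 tested genes, 2898 in DKO and 3407 in WT had such a p. DESeq2 called IL6ST in DKO (adjusted p = 0.0398) and none of the 10 in WT. With pairing of same-numbered libraries within a genotype, 7.75% of tested genes passed in DKO and 12.1% in WT, and again none of the 10. A block on replicate number across both genotypes, which the data do not bear out as pairs, called IL6ST in DKO (edgeR adjusted p = 0.0364).

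IL6ST had the largest difference with the drug among the 10 genes. In DKO its 4 EZ libraries, at 215 to 346 CPM, lay above its 4 DMSO libraries, at 136 to 198 CPM (log2 0.77 ± 0.22, unadjusted p = 0.00250, edgeR adjusted p = 0.0926). In WT the EZ libraries, at 300.2 to 539 CPM, and the DMSO libraries, at 210.4 to 384 CPM, overlapped through WT DMSO replicate 4 (0.58 ± 0.22, unadjusted p = 0.0154, edgeR adjusted p = 0.174). Without that library the difference in WT was 0.86 (edgeR adjusted p = 0.0149) and the edgeR adjusted p in DKO, through the shared estimate of spread, was 0.0313. Without DKO EZ replicate 1 it was 0.276 in DKO. The EZ and DMSO groups did not overlap for 3 of the 10 genes in DKO (IL6ST, STAT5A and STAT5B) and for none in WT, against 9.61% and 9.59% of tested genes. In IL6ST, EZ exceeded DMSO in 4 of 4 same-numbered pairs in DKO and 3 of 4 in WT. JAK2, TYK2, STAT3 and STAT5A were also higher in 4 of 4 pairs in DKO, and STAT5B was lower in 4 of 4. The share of all tested genes with such pairs was not computed, so these counts single out no gene.

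Averaged over both genotypes, a contrast added after the data were seen, IL6ST was 1.60-fold higher in EZ (log2 0.67 ± 0.15, edgeR adjusted p = 0.00994), where 9.31% of tested genes passed. This call held whichever of the 16 libraries was left out. The difference was 0.41 in the low RN7SL1 set (edgeR adjusted p = 0.301) and 1.14 in the high set, which is given with no test since it holds 1 WT library per treatment. STAT5A differed by 0.32 ± 0.12 (edgeR adjusted p = 0.0965) and STAT3 by 0.19 ± 0.09 (edgeR adjusted p = 0.208). With pairing of same-numbered libraries within a genotype, where 20.9% of tested genes passed, the edgeR adjusted p was 0.0166 for STAT5A, 0.0305 for STAT3 and 0.0254 for IL6ST. Within a genotype, STAT5A was higher in EZ than in the DMSO library of the same number in 8 of 8 pairs, by 0.23 to 0.51 in DKO and 0.05 to 0.55 in WT on the log2 scale. JAK2, TYK2 and STAT3 were also higher in 4 of 4 pairs in DKO, and LIF was in WT. No share of all tested genes was computed for such counts.

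**Figure D3:**
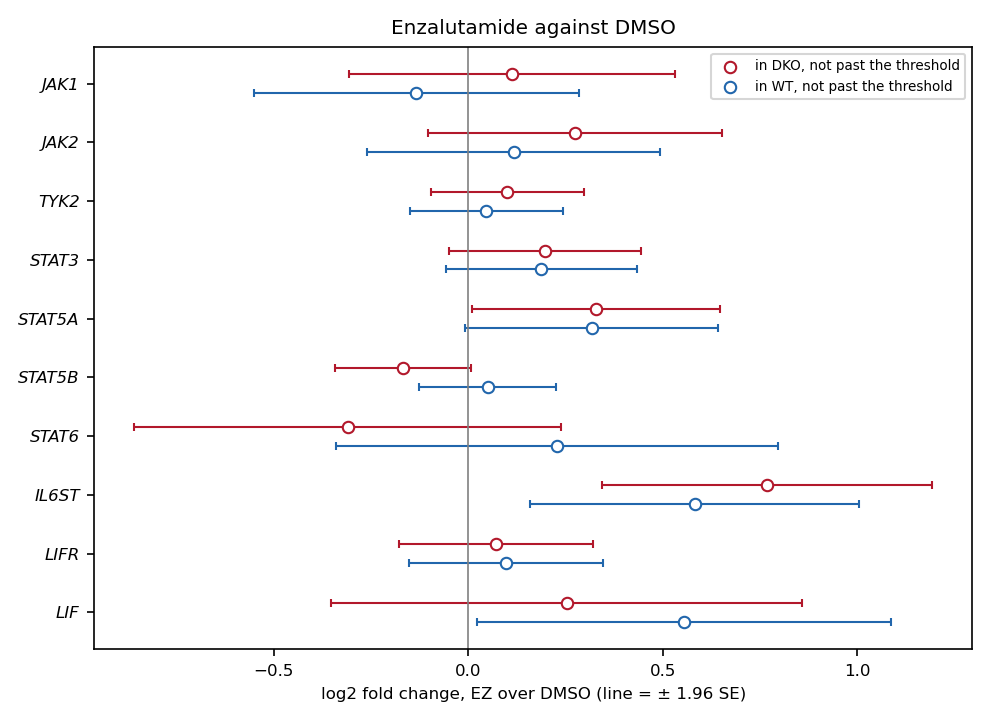
Log2 fold change of EZ over DMSO (horizontal axis) of the 10 genes in DKO and in WT. Lines are approximate 95% intervals. All points are open, since none had an edgeR adjusted p under 0.05, and IL6ST lay farthest right in both genotypes, at 0.77 in DKO and 0.58 in WT.

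In the other 9 genes the drug differences were small or imprecise. In DKO, LIFR differed by 0.07 with an approximate 95% interval of −0.18 to 0.32. There TYK2 differed by 0.10 with an interval of −0.10 to 0.30 and STAT5B by −0.17 with an interval of −0.34 to 0.01. In WT, LIF differed by 0.55 with an interval of 0.02 to 1.09 and an edgeR adjusted p of 0.342. That interval lies on the positive side only, but the unadjusted p of LIF was not under 0.05 (edgeR). JAK2 differed by 0.27 in DKO and 0.12 in WT. The log2 ratio of LIFR to IL6ST differed between EZ and DMSO by −0.69 in DKO, without overlap, and by −0.50 in WT. The ratio of STAT5A to STAT5B differed by 0.49 in DKO and by 0.25 in WT on the same scale. These, too, are given with no test.

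**Figure D4:**
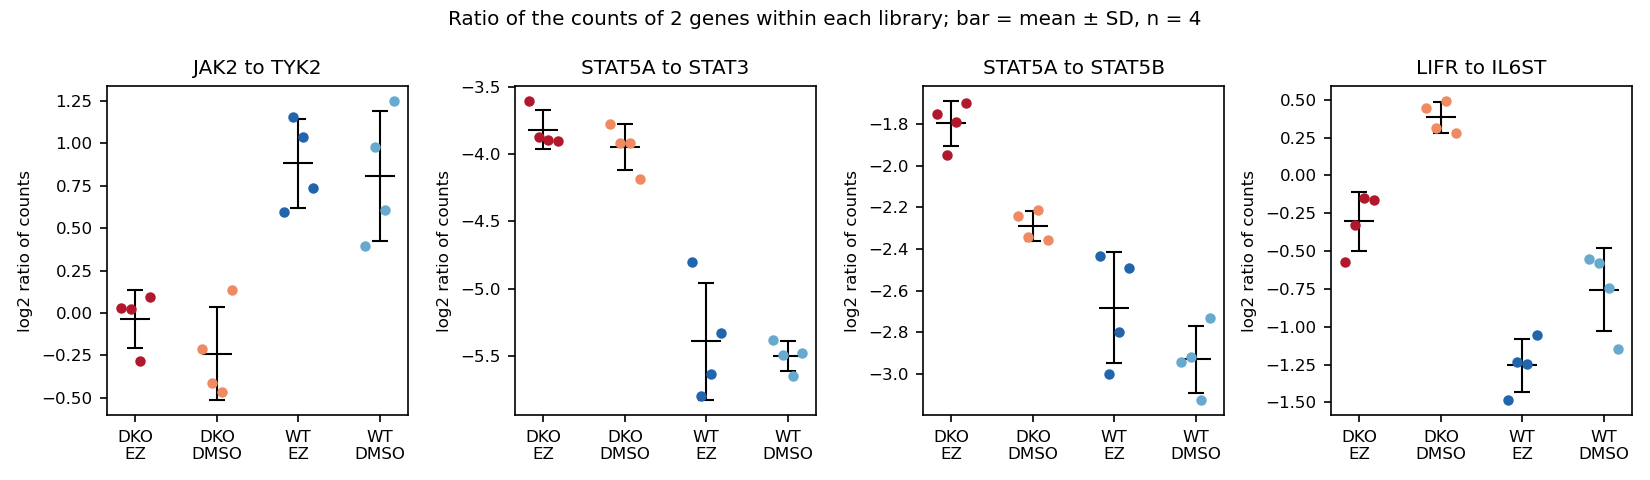
Log2 ratio of the counts of 2 genes within each library (vertical axes), by group; points are libraries and bars are mean ± SD of 4 libraries. JAK2 to TYK2 lay lower in DKO than in WT and the other 3 ratios higher, and LIFR to IL6ST also lay lower in EZ than in DMSO within DKO.

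The interaction compares the EZ over DMSO change of DKO cells with that of WT cells. It had no call among the 10 genes or the 21810 tested genes (edgeR, 0% called). At an unadjusted p under 0.05 it had 648 genes, none of them among the 10. DESeq2 called 10 genes, none of them among the 10 described here, and pairing within genotype called 39 genes (0.179%), also none of these. Its approximate 95% intervals ran from −0.41 to 0.78 for IL6ST, −1.11 to 0.51 for LIF and −0.34 to 0.36 for STAT3. Differences within those bounds were not resolved at this number of libraries.

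Within groups, IL6ST was highest in the library in which genes of dividing cells were lowest. The mean of 10 such genes (MKI67, TOP2A, CCNB1, CCNA2, CDK1, BUB1, AURKA, PLK1, CENPF and KIF11), a list chosen after the values were seen, stood at 4.75 log2 CPM for replicate 1 of DKO EZ, while the remaining libraries of that group had 6.22 to 6.65. It was 6.09 in DKO DMSO replicate 4 and 7.15 to 7.32 in the rest of its group, 3.89 in WT EZ replicate 1 against 5.99 to 6.09 in the rest, and 4.45 in WT DMSO replicate 4 against 6.11 to 6.93 in the rest. In 4 of 4 groups the library highest in IL6ST was the lowest in this list. Over all genes, pairs with these libraries had a chi-square per degree of freedom of 33.0 to 88.7, against 4.87 to 46.1 in the other pairs within groups. The share of all tested genes that were highest in the same libraries was not computed, so the count does not single out IL6ST. JAK1 did not follow this order: the same library was the highest of its group in JAK1 in DKO EZ and WT DMSO, but not in DKO DMSO, and it was the lowest in WT EZ. The part of cell division in the differences of IL6ST was not tested.

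**Figure D5:**
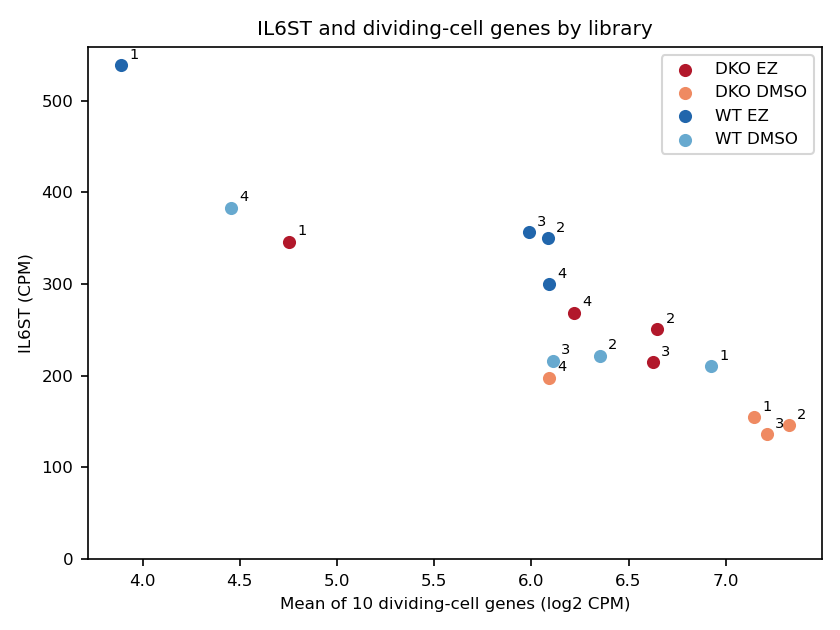
IL6ST in CPM (vertical axis) against the mean of 10 genes of dividing cells in log2 CPM (horizontal axis) in the 16 libraries, with replicate numbers beside the points. WT EZ replicate 1, WT DMSO replicate 4 and DKO EZ replicate 1, at 3.89, 4.45 and 4.75 on the horizontal axis, lay left of all other libraries and were the highest in IL6ST of their groups.

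Divided by exon length, the 10 transcripts spanned a wide range. In CPM per kilobase of exon, DKO EZ had IL6ST at 29.1 ± 5.97, STAT3 at 25.0 ± 3.86 and LIFR at 18.2 ± 1.97 (SD, n = 4), of which IL6ST and STAT3 overlapped. In DKO DMSO, STAT3 at 21.8 ± 2.88, LIFR at 17.4 ± 2.20 and IL6ST at 17.1 ± 2.94 overlapped each with the next. WT EZ had IL6ST at 41.6 ± 11.3 and STAT3 at 38.7 ± 3.43, which overlapped, then JAK2 at 14.8 ± 3.01 and LIFR at 13.4 ± 1.89, which also overlapped. WT DMSO had STAT3 at 34.0 ± 3.06 and IL6ST at 27.8 ± 9.01, which overlapped, then JAK2 at 13.7 ± 3.11 and LIFR at 12.5 ± 1.53, which overlapped. LIFR thus came before JAK2 in both DKO groups and the pair overlapped in both WT groups. STAT5B, at 7.80 to 9.40, and TYK2, at 6.89 to 7.38, followed in the middle of every group, joined there by JAK2 in DKO cells at 7.92 ± 1.01 in EZ and 6.55 ± 1.77 in DMSO. JAK1 and STAT5A came next. At the bottom LIF lay below STAT6 in both DKO groups and above it in both WT groups. The pair overlapped in DKO EZ and did not overlap in the other 3 groups.

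The other genes of the pathway were read from lists by role. Of 9 other ligands of the family, 4 passed the filter on low counts and none was called in any of the 5 comparisons. IL6 itself, OSM, CTF1, IL27 and EBI3 did not pass that filter.

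Among 6 other receptors of the family, 4 were tested. OSMR, which pairs with IL6ST to bind oncostatin M, was the 1 called in the planned comparisons. It was called between DKO and WT in both treatments, where 18.6% of all tested genes passed in DMSO and 20.7% in EZ. It was lower in DKO, at 9.26 ± 0.888 CPM in DKO EZ against 32.3 ± 2.34 CPM in WT EZ and at 7.70 ± 0.754 CPM in DKO DMSO against 28 ± 1.46 CPM in WT DMSO. The log2 difference was −1.80 ± 0.12 in EZ and −1.86 ± 0.12 in DMSO (edgeR adjusted p = 9.18e-09 and 6.61e-09). OSMR and LIFR are alternative partners of IL6ST, and LIFR was higher in the same cells. In the added contrast of EZ against DMSO averaged over both genotypes, 1 of the 4 tested receptors was higher, where 9.31% of tested genes passed.

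Of 29 other JAK-coupled cytokine receptors, 20 were tested, and 5 were higher and 3 lower in DKO in each treatment, where 18.6% of all tested genes passed in DMSO and 20.7% in EZ. The median was 0.23 in DMSO and 0.42 in EZ. PRLR, the prolactin receptor, was higher in DKO by 2.06 ± 0.37 in DMSO and 2.71 ± 0.40 in EZ, and it was the 1 receptor of the list that EZ lowered in WT (−1.86 ± 0.40, edgeR adjusted p = 0.0157). GHR, the growth hormone receptor, was lower in DKO (−0.75 ± 0.15 in DMSO and −0.67 ± 0.15 in EZ). It was the 1 receptor raised by EZ in both genotypes, by 0.76 ± 0.15 in DKO and 0.69 ± 0.15 in WT (edgeR adjusted p = 0.0193 and 0.0190). IL10RA was higher in DKO by 2.32 ± 0.39 in DMSO and 2.26 ± 0.39 in EZ at about 1.22 CPM in each DKO group. IL3RA was lower (−1.47 ± 0.34 in DMSO and −1.19 ± 0.35 in EZ).

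Of 17 negative regulators, all tested, 2 were higher and 2 lower in DKO in DMSO and 3 were higher and 3 lower in EZ, where 18.6% and 20.7% of all tested genes passed. The medians were −0.06 and −0.10. SOCS3, the feedback inhibitor that binds IL6ST, was higher in DKO, at 1.87 ± 0.499 CPM in DKO EZ against 0.140 ± 0.1 CPM in WT EZ and at 1.84 ± 0.508 CPM in DKO DMSO against 0.183 ± 0.0670 CPM in WT DMSO. The fitted log2 difference was 3.73 ± 0.46 in EZ and 3.40 ± 0.45 in DMSO (edgeR adjusted p = 2.17e-05 and 4.13e-05), and it rests on 13 and 17 counts over the 4 WT libraries of each treatment. CISH, a feedback inhibitor of STAT5, was higher by 0.93 ± 0.25 in EZ and 0.96 ± 0.26 in DMSO. The phosphatase gene PTPN11 was lower (−0.36 ± 0.12 in EZ and −0.56 ± 0.12 in DMSO), as was PIAS2, a SUMO ligase of the PIAS family (−0.37 ± 0.11 in EZ and −0.47 ± 0.11 in DMSO).

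Of 20 genes described as STAT3 targets, 17 were tested. In EZ 3 were higher and 4 lower in DKO, where 20.7% of all tested genes passed, and in DMSO 2 were higher and 1 lower, where 18.6% passed. The medians were −0.12 and −0.16. SOCS3, given above, is also on this list and was higher in DKO (3.73 ± 0.46 in EZ and 3.40 ± 0.45 in DMSO). CCND1, the cyclin D1 gene, was lower (−1.85 ± 0.20 in EZ and −1.71 ± 0.20 in DMSO), and MYC was lower in EZ (−1.02 ± 0.18). PIM1, a survival kinase gene that is also on the STAT5 list, was higher in EZ by 1.49 ± 0.38 though its groups overlapped, at 9.83 to 41.1 CPM in DKO EZ and 4.85 to 10.1 CPM in WT EZ. Of 8 genes described as STAT5 targets, 6 were tested. In EZ 3 were higher and 2 lower, and in DMSO CISH alone was called, beside the same shares of all genes. In EZ, PIM2 (−0.77 ± 0.14) and BCL2L1 (−0.42 ± 0.13) were lower. Neither target list had a gene called for the drug in either genotype, where 1.48% of tested genes passed in DKO and 3.32% in WT. Averaged over both genotypes, the drug contrast called 1 STAT3 target higher and 1 STAT5 target lower, where 9.31% of tested genes passed.

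The closest patterns to those of LIF and IL6ST, the pair of genes with the widest spread of group means, were sought among 14350 other protein-coding tested genes as the root mean square difference of centred log2 CPM over the 16 libraries. For LIF they were FAS at 0.27, VTA1 at 0.38 and SLC44A4 at 0.39. FAS stood at 2.74 CPM in DKO EZ, 1.72 in DKO DMSO, 10.7 in WT EZ and 7.55 in WT DMSO. For IL6ST they were GCLC at 0.15, SLC9A7 at 0.16 and TP53INP1 at 0.16. GCLC stood at 69.8 CPM in DKO EZ, 41.5 in DKO DMSO, 106 in WT EZ and 66.0 in WT DMSO.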

How the data were processed

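The deposited values are raw counts: whole numbers of reads for each Ensembl ID, in 1 table per library. STAR 2.7.3a and GRCh38 are named in the submitters' processing notes, with no role given. No source used here gives the counting tool or its strand setting, so reads of overlapping or near-identical genes may have been divided between genes. Libraries were made from total RNA with ribosomal RNA depletion, per the labels' protocols. Groups and replicate numbers were taken from the sample titles. Symbols came from the gene table (60357 of 60676 IDs matched), coordinates and exon lengths from GENCODE v29 (58503 IDs), and start regions from RefSeq on GRCh38.p14.

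The counts were fitted with edgeR 4.0.16 (R 4.3.3). Its filterByExpr function (minimum count 10, minimum total 15) kept 21810 genes and TMM factors scaled the library sizes. One group-means model took in the 16 libraries, contrasts were tested by robust quasi-likelihood, and p-values were adjusted by Benjamini-Hochberg across the tested genes, with calls at 0.05. Changes are log2 fold changes ± SE, and differences given without a unit are on that scale. The common dispersion was 0.0787. Replicates differed by more than sampling noise (chi-square per degree of freedom 4.87 to 88.7), so none were merged. DESeq2 1.42.0 was an alternative, with other scalings, filters, sets of libraries and left-out libraries. The fit was also run on simulated counts drawn independently for each library. That run held no RN7SL1 sets and no pairing, so it cannot speak to either.

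Same-numbered libraries of a genotype deviated together from their group means (r from 0.403 to 0.664 in DKO and 0.326 to 0.625 in WT), which pairs them by the criterion that every pair correlates over 0.1. Libraries of different number ran from −0.566 to 0.128 in DKO and from −0.450 to 0.511 in WT. The pairing is thus less distinct in WT, where the value of 0.511 lies within the range of the same-numbered pairs. Between genotypes the lowest correlation in the same treatment was −0.067, so no pairing was used there.

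All 10 genes are named in every comparison. Of each pathway list, up to the 2 highest and 2 lowest fold changes past the threshold with at least 1 CPM in the higher group are named, and the 3 nearest genes of the 2 members with the widest range. Members and lists were chosen with earlier results of these data known, so no count over them is independent support. Some genes of the lists are not reported here.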

Additional observations from a re-analysis of the deposited data

Results flagged for a closer look

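In 4 of the 40 sets of 4 libraries (10 genes in 4 groups), 1 library lay far enough from the other 3 to pass Dixon's 95% critical value, and chance flags about 1 in 20 such sets. JAK2 stood at 56.7 CPM in DKO DMSO replicate 4, where the others lay at 33.8 to 36.7 CPM. IL6ST stood at 384 CPM in WT DMSO replicate 4, where the others lay at 210.4 to 222 CPM. LIFR stood at 192 CPM in WT EZ replicate 1, where the others lay at 144 to 151 CPM. STAT6 stood at 1.16 CPM in WT EZ replicate 2, where the others lay at 1.496 to 1.51 CPM. DKO DMSO replicate 4, WT DMSO replicate 4 and WT EZ replicate 1 were also the lowest of their groups in the genes of dividing cells. Whether this accounts for their levels was not tested.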

How the results depend on the processing

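Over 1830 alternative values of the 10 genes, 1756 lay on the same side of the threshold as the reported value, 42 lost a call and 32 gained one. No called value changed sign. Among the 1756 were 94 uncalled values that did change sign. Leaving out 1 library moved the count of tested genes called over 2957 to 4167 (DKO against WT in DMSO), 3270 to 4776 (in EZ), 73 to 451 (EZ against DMSO in DKO) and 304 to 1051 (in WT), and the count of the 10 genes over 6 to 8, 4 to 6, 0 to 1 and 0 to 1. The interaction stayed at 0 genes in each of these fits.

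For DKO against WT, 4058 genes passed in DMSO and 4508 in EZ, against 2548 and 2539 in the low RN7SL1 set and 386 and 869 in the high set, whose WT groups hold 1 library each. Of the 10 genes, 8 passed in DMSO and 5 in EZ. In DMSO 5 of the 10 passed with only the groups compared, where 3082 of 19924 tested genes passed. In the low set 5 of the 10 passed in DMSO, where 2548 of 23416 tested genes passed. Library totals split the calls into 3479 higher and 1082 lower in DMSO and 3966 and 1183 in EZ, where TMM gave 1943 and 2115, and 2027 and 2481. Upper-quartile scaling gave 2403 and 1869 in DMSO and 2703 and 1952 in EZ, with the median of all genes moved by 0.11 in EZ. Library totals called STAT5B in EZ (0.30, edgeR adjusted p = 0.0104). IL6ST in DMSO lost its call with library totals (edgeR adjusted p = 0.0758), no filter (0.0763) and only the groups compared (0.0585), STAT5B with no filter (0.196) and only the groups compared (0.0635), and STAT6 with only the groups compared (0.0528).

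For EZ against DMSO, 322 genes passed in DKO, against 751 with DESeq2, 167 with no filter, 519 with the RN7SL1 set as a term, 13 in the low set and 0 in the high set. In WT, 724 passed, against 1239 with DESeq2, 436 with no filter, 294 with only the groups compared, 371 in the low set and 0 in the high set. The replicate block across genotypes gave 1104 genes in DKO and 1724 in WT, and the block within genotype 1691 in DKO and 2641 in WT. Of the 10 genes, 1 (IL6ST) passed in DKO with DESeq2, with library totals (edgeR adjusted p = 0.0462 there) and with the replicate block. The interaction had 10 genes with DESeq2, 1 with the replicate block and 39 with the block within genotype. Other than where stated, pairing changed no call in a planned comparison. Across genotypes same-numbered libraries correlated from −0.067 to 0.674 in DMSO and −0.052 to 0.523 in EZ, so they share a number only. The causes of these shifts were not tested. LIF and STAT6 had the lowest counts of the 10 genes, at 10 to 187 and 13 to 146 per library.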
